A study of Mus musculus with 2 samples.

Results

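The 10 genes described here belong to the BCL2 family, which sets the threshold for the mitochondrial route of programmed cell death: the survival genes Bcl2, Bcl2l1, Mcl1, Bcl2a1b and Bcl2a1d, the pore-forming death genes Bax and Bak1, and the BH3-only death genes Bcl2l11, Bbc3 and Pmaip1. They were picked by symbol from the 32285 genes in the files, and all 10 were present in both libraries. Leukocytes that carried CD90.2, the Thy1 antigen found on T cells and some innate lymphocytes, along with CD45 had been sorted from tumours of C57BL/6 mice. They were sequenced as 2 single-cell libraries, 1 from mice of genotype WT and 1 from mice of genotype Dapl1-KO. The comparison asks how expression in T cells within tumours differs when Dapl1 is missing. The number of animals or tumours per library, the tumour line, the age of the mice and the position of the deletion are not given in the sources used here.

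In lymphocytes the family works as a balance. The survival proteins hold BAX and BAK in check at the outer mitochondrial membrane, and BH3-only proteins, made when growth factor is withdrawn or DNA is damaged, bind the survival proteins and free the pore formers, after which cytochrome c leaves the mitochondrion and caspases are switched on. Resting T cells are known to depend on IL-7, which sustains Bcl2, whereas antigen receptor stimulation is known to induce the transcripts of Bcl2l1 (BCL-XL) and of the Bcl2a1 genes (A1).

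Transcripts were counted as unique molecular identifiers (UMIs) at the 3′ ends of messages, and levels are given as CPM (counts scaled to a total of 1000000 UMIs), summed over all cells of a gated state in a library. The 7 kinds of cell were gated on marker genes, with cell numbers given for the library labelled WT and then the library labelled Dapl1-KO. These were naive CD8 cells (923 and 398), effector CD8 cells with Ly6c2 or Gzma (549 and 1082), PD-1 CD8 cells with Pdcd1 (1273 and 1699), cycling CD8 cells (999 and 1773), conventional CD4 cells (519 and 498), regulatory T cells with Foxp3 (629 and 732) and natural killer (NK) cells (323 and 463). With 1 library per genotype no test between genotypes was possible, and all intervals are 95% intervals for counting error only. A gene was called higher or lower when it differed by 1.3-fold or more and the interval of the ratio excluded no difference, among genes at 10 CPM or more in either sample. For a state against naive CD8 cells, the same call had to hold in both libraries. The share of all genes tested that met the same rule is given as the background of each count.

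Some features of the libraries bear on every value. Of their 16673 and 19662 barcodes, 13132 occurred in both libraries, and the smaller copy was removed (36.0% and 36.4% of barcodes). Dapl1 transcripts remained in the library labelled Dapl1-KO, at 209 CPM in naive CD8 cells, beside 189 CPM in the WT-labelled naive CD8 cells. Since the deleted part is not known and counts come from 3′ ends, this does not check the label. In the library labelled WT, 73.9% of cells had Xist and no Y-linked transcript, against 0.0891% in the library labelled Dapl1-KO, so the sex of the mice largely coincided with the genotype label. Dissociation-responsive genes (Hspa1a, Hspa1b, Dnajb1, Fos and Jun) summed to 4600 CPM in naive CD8 cells labelled WT and 1136 CPM in those labelled Dapl1-KO, with the same order in all 7 states. Their part in the differences between the labels was not tested. The effector gate uses Ly6c2 and Gzma, which over all gated CD8 cells were at 150 and 123 CPM under the WT label and at 316 and 336 CPM under the Dapl1-KO label. Its check genes (Ccl5, Nkg7 and others) were higher in the PD-1 gate than in the effector gate in both libraries, and it held 1696 and 1512 CPM of the naive check genes (3165 and 2602 CPM in naive CD8 cells). The naive gate in turn held 2948 and 3376 CPM of the effector check genes (10856.7 and 15603.5 CPM in the effector gate). Whether it includes memory cells was not tested. The check genes of the CD4 gate (Cd40lg, Icos and others) summed to 817 and 973 CPM there, against 931 and 854 CPM in regulatory T cells. That gate also held 1685 and 2054 CPM of the regulatory T check genes (4042.5 and 4799 CPM in regulatory T cells). Whether it holds regulatory T cells without a Foxp3 UMI was not tested. Myeloid genes summed to 58.5 to 521 CPM over the 7 states, highest in regulatory T cells, against 12446 and 11041 CPM in myeloid cells, and their part in the results was not tested.

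Most of the family was arranged by cell state in the same way in both libraries. Of 60 comparisons of a member with naive CD8 cells, 29 were called higher and 15 lower. In cycling CD8 cells 6 members were higher and 4 lower, so every member was called, against backgrounds of 49.6% of genes higher and 15.6% lower. In regulatory T cells the counts were also 6 and 4 (backgrounds 48.9% and 10.1%). In PD-1 CD8 cells 6 were higher and 3 lower (38.8% and 10.8%), and in CD4 cells 5 were higher and 1 lower (37.9% and 4.02%). In effector CD8 cells 4 were higher and none lower (13.8% and 1.68%), and in NK cells 2 were higher and 3 lower (34.4% and 6.39%). The counts of higher members lie near the background in cycling and regulatory T cells, since much of the transcriptome was higher in CPM there. Cycling CD8 cells had a median of 30958 and 26823 UMIs, against 7478 and 9020 UMIs in naive CD8 cells. A lower CPM in cycling CD8 cells is thus a lower share of a larger total and does not give the count per cell. Scaling by the median of ratios lowered all ratios to naive CD8 by between 0.11 and 0.42 on the log2 scale, and no direction named below for a member called against naive CD8 reversed under that scaling.

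**Figure D1:**
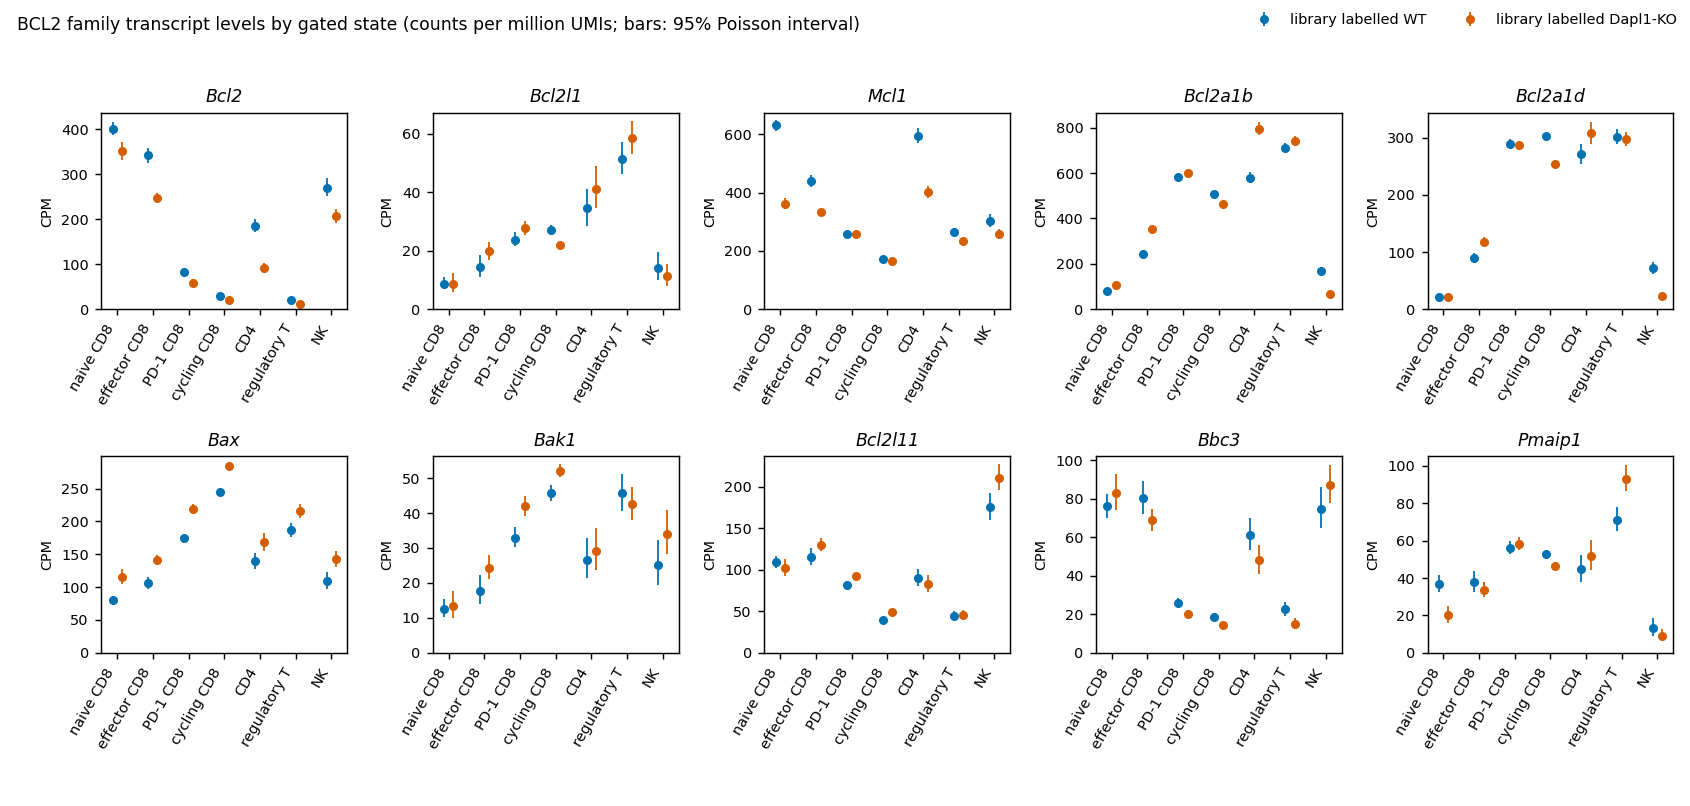
Level of each member (CPM, linear axes from 0) in the 7 gated states, for the library labelled WT (blue) and the library labelled Dapl1-KO (orange), with 95% Poisson intervals from counts. Bcl2 runs from 402 CPM in naive CD8 cells labelled WT down to 11.98 CPM in regulatory T cells labelled Dapl1-KO, while Bcl2a1d, Bax and Bak1 are lowest or near their lowest in naive CD8 cells.

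Bcl2, which encodes the founding survival protein, had the widest range. The gene lies at chr1:106538178-106714274 on the minus strand of GRCm38, where D630008O14Rik overlaps it on the other strand. Its level in naive CD8 cells was 402 CPM (interval 387 to 416) in the library labelled WT and 351 CPM (333 to 371) in the library labelled Dapl1-KO. It was 342 and 247 CPM in effector CD8 cells, 271 and 207 CPM in NK cells, and 186 and 91.4 CPM in CD4 cells. In PD-1 CD8 cells it was 83.6 and 59.2 CPM, in cycling CD8 cells 29.0 and 19.7 CPM, and in regulatory T cells 20.2 and 11.98 CPM. The order of the 7 states was the same in both libraries, and every neighbouring pair differed beyond its counting interval in both. Against naive CD8 cells, Bcl2 was 4.80-fold and 5.94-fold lower in PD-1 CD8 cells and 13.9-fold and 17.8-fold lower in cycling CD8 cells. It was also called lower in regulatory T cells, but its level there was within the counting interval of the level in myeloid cells (16.8 CPM, 4.58 to 43.1, and 17.0 CPM, 7.35 to 33.5), so no exact fold is read.

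The share of cells with a Bcl2 UMI was also highest in naive CD8 cells and lowest in regulatory T cells, while the order of states between them varied with library and thinning. After thinning every cell to 3000 UMIs, 61.4% of naive CD8 cells labelled WT (interval 58.2 to 64.6) and 54.3% of those labelled Dapl1-KO had one, against 21.7% and 15.6% of PD-1 CD8 cells and 4.70% and 3.07% of regulatory T cells. Without thinning these shares were 82.9% and 82.4%, 43.8% and 34.3%, and 12.2% and 8.47%. Myeloid cells in the same libraries, taken here as cells that should hold little Bcl2, had a thinned share of 5.56% (1 of 18 cells) and 0 of 38 cells. The exact interval for 0 of 38 reaches 9.25%. The shares in regulatory T cells are within these limits and are not separated from background by this reference. Those of cycling CD8 cells (8.61% and 6.33%) also lie below that bound, and their levels are within the myeloid intervals. Their folds and their difference between the labels thus rest on levels that this reference does not separate from background. The reference is small, with 4 and 8 Bcl2 UMIs. Without thinning, 45.5% and 33.2% of cycling CD8 cells had a Bcl2 UMI, against 2 of 19 and 4 of 46 myeloid cells. Before thinning, the median depth was 7151 and 7302 UMIs in regulatory T cells, 30958 and 26823 UMIs in cycling CD8 cells and 11942 and 9925.5 UMIs in the myeloid cells.

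Mcl1 encodes a short-lived survival protein. It was at 631 and 362 CPM in naive CD8 cells, 594 and 402 CPM in CD4 cells, 439 and 332 CPM in effector CD8 cells and 304 and 259 CPM in NK cells. PD-1 CD8 cells (257 and 257 CPM) and regulatory T cells (266 and 233 CPM) were alike in level, with different orders in the libraries, and cycling CD8 cells were lowest at 173 and 165 CPM. In CPM, Mcl1 was lower than in naive CD8 cells by 2.46-fold and 1.41-fold in PD-1 CD8 cells and by 3.65-fold and 2.20-fold in cycling CD8 cells. After thinning, 42.1% and 37.2% of cycling CD8 cells had an Mcl1 UMI, against 77.2% and 60.2% of naive CD8 cells. Before thinning, with the cycling cells deeper, the shares were 97.6% and 95.7% against 93.3% and 91.2%. CD4 cells did not differ from naive CD8 cells in the same direction in the libraries.

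Bcl2l1 ran the other way. Its level was 8.75 and 8.76 CPM in naive CD8 cells, the single gated state in which a member was below 10 CPM in both libraries. Regulatory T cells were highest at 51.6 and 58.6 CPM, followed by CD4 cells at 34.5 and 41.3 CPM, both differing from the next state in both libraries. PD-1 CD8 cells had 23.8 and 27.8 CPM and cycling CD8 cells 27.1 and 21.9 CPM, with opposite orders in the libraries. Effector CD8 cells (14.4 and 19.9 CPM) and NK cells (14.2 and 11.3 CPM) did not differ from each other in both libraries. Against naive CD8 cells Bcl2l1 was 5.89-fold and 6.69-fold higher in regulatory T cells and 2.72-fold and 3.17-fold higher in PD-1 CD8 cells.

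Bcl2a1b and Bcl2a1d encode nearly identical forms of A1, a survival protein of activated lymphocytes, and lie on chromosome 9 with 2 further copies, Bcl2a1a and Bcl2a1c. In GRCm38, Bcl2a1b is at chr9:89199209-89207827 on the plus strand and Bcl2a1d at chr9:88723285-88731914 on the minus strand (GENCODE M21). Their annotated transcripts, of 817 and 863 bases, matched at 810 of 817 aligned bases (99.1%). Of all windows of 90 bases in the last 500 bases, where 3′ reads fall, 39.4% of those of Bcl2a1b and 65.2% of those of Bcl2a1d also occurred unchanged in another copy. The sources used here do not say how reads that match several copies were counted, so the split between the copies is uncertain. Bcl2a1a was at 0.269 to 16.4 CPM and Bcl2a1c at 2.36 CPM or less in every state. The start regions of both genes, 250 bases before to 50 bases after the RefSeq start (GRCm38.p6, each written on its own strand), are shown because the levels of the copies were close to parallel over the states. Capitals mark the letters TGANTCA, a loosened form of the AP-1 core, and neither marked stretch is the exact core:
Bcl2a1b: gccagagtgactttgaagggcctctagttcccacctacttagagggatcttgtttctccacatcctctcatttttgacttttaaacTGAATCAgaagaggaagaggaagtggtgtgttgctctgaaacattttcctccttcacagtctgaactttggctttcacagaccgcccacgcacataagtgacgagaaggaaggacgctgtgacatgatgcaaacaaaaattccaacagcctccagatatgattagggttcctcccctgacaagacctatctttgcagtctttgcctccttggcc
Bcl2a1d: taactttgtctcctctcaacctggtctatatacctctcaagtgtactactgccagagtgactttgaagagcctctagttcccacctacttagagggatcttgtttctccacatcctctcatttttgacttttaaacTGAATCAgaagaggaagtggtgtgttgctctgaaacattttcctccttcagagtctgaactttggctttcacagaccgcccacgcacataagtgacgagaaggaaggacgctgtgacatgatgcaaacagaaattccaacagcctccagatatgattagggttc
The first sequence is chr9:89199023-89199322 (plus strand) and the second chr9:88731801-88732100 (minus strand). They matched at 247 of 250 aligned bases (98.8%), with gaps left out of the count, and they also differ by a gap just after the marked stretch. That stretch begins 164 bases before the start in Bcl2a1b and 114 bases before it in Bcl2a1d. The letters TGANTCA, on either strand, occur in 7.81% of the 32851 RefSeq start regions, and among the 9 members with a start region in that table only these 2 hold them. A match of letters is a description and not a binding site.

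The A1 genes were low in naive CD8 cells and high in activated states. Bcl2a1b was at 79.6 and 106 CPM in naive CD8 cells, 244 and 352 CPM in effector CD8 cells, 585 and 601 CPM in PD-1 CD8 cells and 509 and 466 CPM in cycling CD8 cells. Conventional CD4 cells had 580 and 796 CPM and regulatory T cells 712 and 743 CPM. Bcl2a1d was at 21.1 and 21.2 CPM in naive CD8 cells and between 253 and 308 CPM in PD-1 CD8, cycling CD8, CD4 and regulatory T cells of both libraries. It was 13.7-fold and 13.5-fold higher than naive in PD-1 CD8 cells and 14.3-fold and 14.03-fold higher in regulatory T cells. The UMI ratio of Bcl2a1b to Bcl2a1d lay between 1.69 and 2.58 in cycling CD8, PD-1 CD8, CD4 and regulatory T cells, and was 3.76 and 4.98 in naive CD8 cells. After thinning, 15.7% and 20.8% of naive CD8 cells had a Bcl2a1b UMI, against 74.1% and 72.7% of PD-1 CD8 cells (before thinning, 30.1% and 37.9% against 90.8% and 91.7%). The thinned share was lowest in NK cells labelled Dapl1-KO at 12.7%, while myeloid cells had 77.8% and 39.5%. No gated type served as a type without A1, and the part of free RNA in the naive CD8 share was not tested.

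Bax and Bak1 encode the proteins that open the outer mitochondrial membrane. Bax was lowest in naive CD8 cells (79.7 and 116 CPM) and highest in cycling CD8 cells (245 and 284 CPM). It was 106 and 141 CPM in effector CD8 cells, 110 and 142 CPM in NK cells, 139 and 168 CPM in CD4 cells, 174 and 219 CPM in PD-1 CD8 cells and 187 and 216 CPM in regulatory T cells. Bak1 was also lowest in naive CD8 cells (12.7 and 13.5 CPM) and highest in cycling CD8 cells (45.7 and 52.1 CPM), where regulatory T cells (45.6 and 42.5 CPM) did not differ from it in both libraries. Both genes were called higher than naive in PD-1 CD8, cycling CD8, CD4 and regulatory T cells. In CD4 cells the call of Bax was lost under median-of-ratios scaling, under a total without ribosomal and mitochondrial genes and in cells with Y-linked transcripts, where the ratio of Bak1 in the library labelled WT was -0.02. Bak1 overlaps Ggnbp1 on the other strand, and the sources used here do not say whether strand was used in counting.

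Of the 3 BH3-only genes, Bcl2l11 and Bbc3 had similar patterns over the states (Pearson correlation 0.89 and 0.85 over 7 states that share libraries and depth), and Pmaip1 ran differently (-0.83 and -0.85 with Bcl2l11). Bcl2l11 encodes BIM, the main BH3-only protein in the death of lymphocytes deprived of cytokine. It was highest in NK cells at 176 and 211 CPM. Effector CD8 cells (116 and 131 CPM) and naive CD8 cells (110 and 103 CPM) did not differ in both libraries, and PD-1 CD8 cells had 81.5 and 92.1 CPM. CD4 cells had 90.5 and 82.9 CPM, and cycling CD8 cells (39.9 and 49.4 CPM) and regulatory T cells (44.6 and 46.1 CPM) were lowest. Bcl2l11 was 2.75-fold and 2.07-fold lower than naive in cycling CD8 cells and 2.45-fold and 2.22-fold lower in regulatory T cells.

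Bbc3 encodes PUMA, a target of p53. Its levels were 76.2 and 83.1 CPM in naive CD8 cells, 80.3 and 69.0 CPM in effector CD8 cells and 74.9 and 87.3 CPM in NK cells, which did not differ in both libraries. They were 61.2 and 48.0 CPM in CD4 cells, 25.7 and 20.1 CPM in PD-1 CD8 cells, 22.6 and 15.1 CPM in regulatory T cells and 18.7 and 14.7 CPM in cycling CD8 cells. Bbc3 was thus 4.08-fold and 5.65-fold lower than naive in cycling CD8 cells. Its pattern over the 7 states was close to that of Bcl2, with a Pearson correlation of log2 levels of 0.95 in each library. The 7 points share libraries, cells and depth, and this is given as a description only.

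Pmaip1 encodes NOXA, whose protein binds MCL1 and A1. It was highest in regulatory T cells at 71.4 and 93.2 CPM. PD-1 CD8 cells had 56.3 and 58.4 CPM, cycling CD8 cells 52.7 and 46.6 CPM, CD4 cells 44.9 and 51.9 CPM, effector CD8 cells 37.8 and 33.7 CPM and naive CD8 cells 36.9 and 20.2 CPM. NK cells were lowest at 13.4 and 8.97 CPM, 2.75-fold and 2.25-fold below naive CD8 cells. In the library labelled WT, restricted to cells with Y-linked transcripts and no Xist, Pmaip1 was lower than naive in PD-1 CD8, cycling CD8 and regulatory T cells (log2 ratios -0.16, -0.21 and -0.52), the opposite direction to that of all cells.

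**Figure D2:**
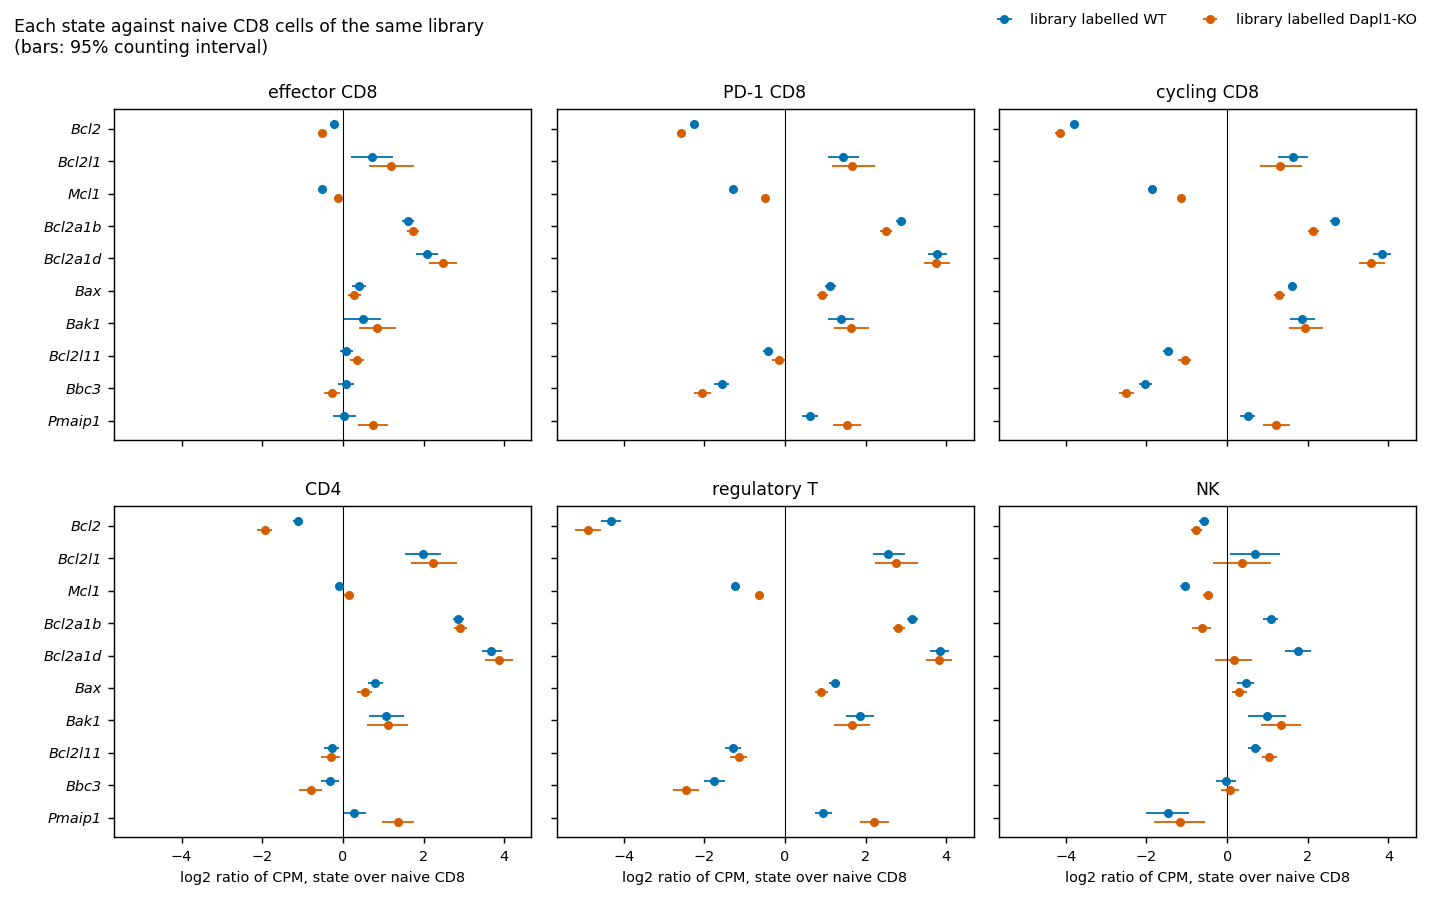
log2 ratio of CPM of each state over naive CD8 cells of the same library, with 95% counting intervals, for the library labelled WT (blue) and the library labelled Dapl1-KO (orange). Bcl2 lies left of 0 in all 6 states, and Bcl2a1d lies near 3.8 in PD-1 CD8 and regulatory T cells.

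The same split appeared within states. PD-1 CD8 cells without Havcr2 (the gene of TIM-3, a receptor of exhausted cells) and with Tcf7 or Slamf6, markers of progenitor cells, had 222 and 172 CPM of Bcl2 against 48.8 and 35.8 CPM in PD-1 CD8 cells with Havcr2, which is 4.54-fold and 4.80-fold higher. Bbc3 was also higher in the progenitor-gated cells, at 49.7 and 58.0 CPM against 19.2 and 12.3 CPM. Bcl2l1, Bcl2a1d, Bax and Bak1 were lower there, Bcl2a1d at 166 and 181 CPM against 322 and 313 CPM. These 2 higher and 4 lower members compare with backgrounds of 9.57% and 14.8% of genes. The progenitor gate held 1224 and 1141 CPM of the naive check genes, which include its gating gene Tcf7, against 110 and 133 CPM in the Havcr2 gate. The PD-1 check genes (Lag3, Tox and others) summed to 443 and 505 CPM in it, against 1217 and 1418 CPM. Whether it holds naive or memory cells with a Pdcd1 UMI was not tested. Between PD-1 CD8 cells with Havcr2 and all those without it, Bcl2 and Bbc3 were called lower and no member higher (backgrounds 5.03% lower and 7.16% higher).

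Cycling regulatory T cells differed from other regulatory T cells in 6 members. Bak1 was higher (56.2 and 54.3 CPM against 35.9 and 32.5 CPM; background 18.5%). Bcl2, Mcl1, Bcl2l11, Bbc3 and Pmaip1 were lower (background 20.0%), with Bcl2l11 at 24.6 and 24.9 CPM against 63.2 and 64.2 CPM. Conventional CD4 cells with at least 2 genes of a naive marker set that includes Ccr7 and Lef1 had more Bcl2 than other CD4 cells, at 303 and 129 CPM against 114 and 66.5 CPM. Mcl1 was also higher in them, while Bcl2l1, Bcl2a1b, Bcl2a1d and Pmaip1 were lower (backgrounds 1.53% higher and 5.40% lower).

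**Figure D3:**
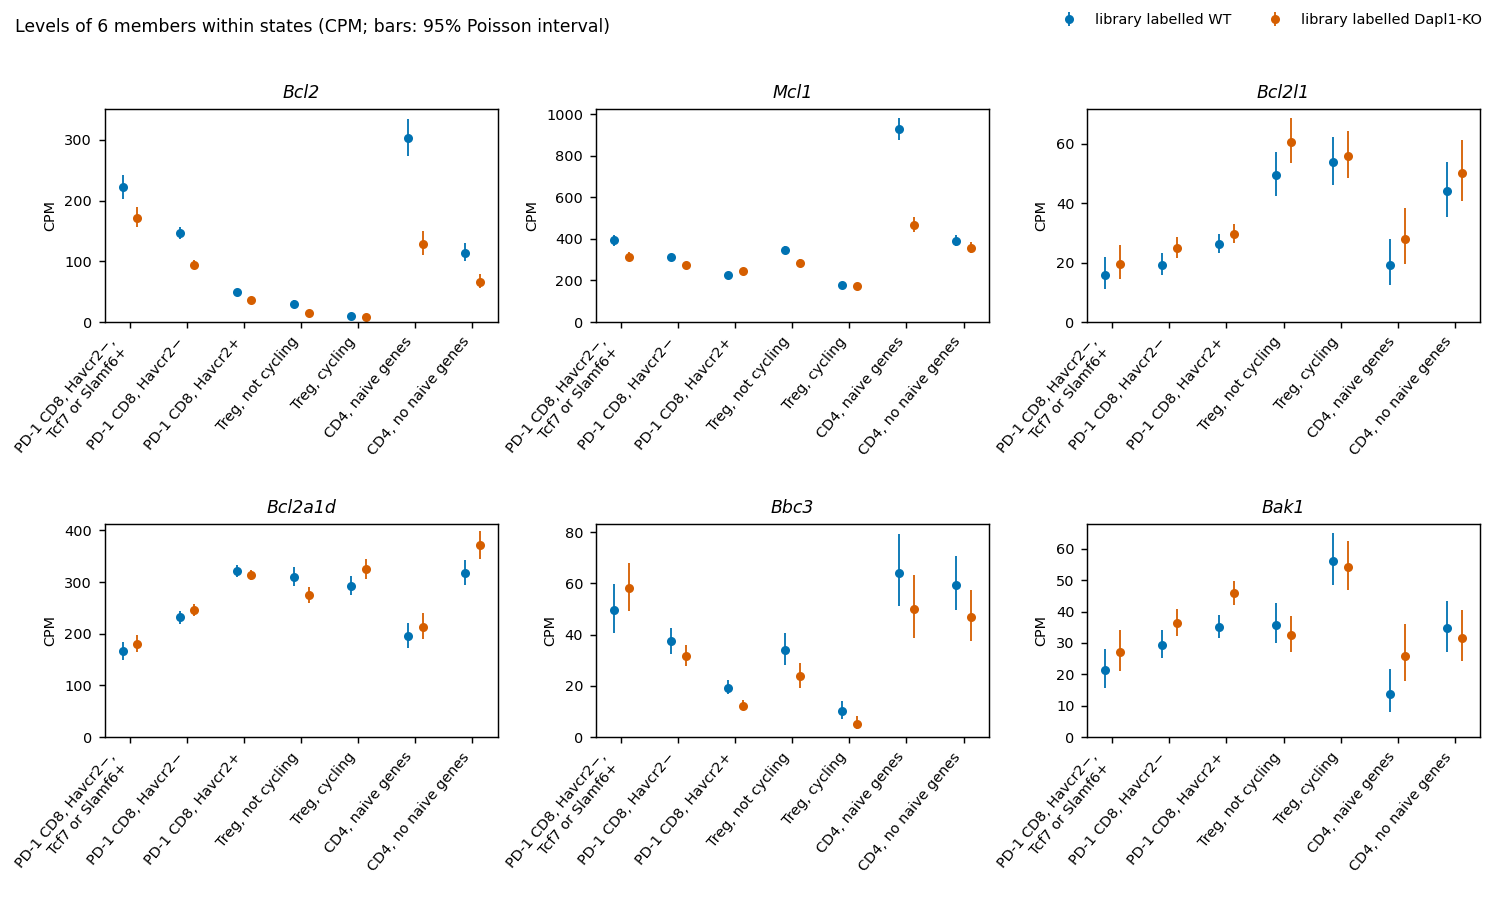
Levels of 6 members (CPM, linear axes from 0, 95% Poisson intervals) in PD-1 CD8, regulatory T (Treg) and CD4 cells split by marker genes, blue for the library labelled WT and orange for the library labelled Dapl1-KO. Bcl2 and Bbc3 are lower and Bcl2a1d and Bak1 higher in the Havcr2 gate than in the Tcf7 or Slamf6 gate, and the widest gap between the libraries for Bcl2 and Mcl1 is in CD4 cells with naive genes.

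The number of Bcl2 UMIs per Bcl2l11 UMI ordered the states in a similar way. It is compared here between states, not with equality, because capture can differ between genes. The ratio was 3.67 (interval 3.39 to 3.97) and 3.43 (3.06 to 3.85) in naive CD8 cells, 2.96 and 1.89 in effector CD8 cells, and 2.05 and 1.10 in CD4 cells. It was 1.54 and 0.979 in NK cells, 1.03 and 0.642 in PD-1 CD8 cells, 0.726 and 0.399 in cycling CD8 cells and 0.454 and 0.260 in regulatory T cells. The values in cycling CD8 and regulatory T cells rest on Bcl2 levels not separated from the myeloid background above, so they are not read as exact ratios. The order of the 7 states was the same in both libraries, and the ratio was lower in the library labelled Dapl1-KO in all 7, with overlapping intervals in naive CD8 cells only.

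**Figure D4:**
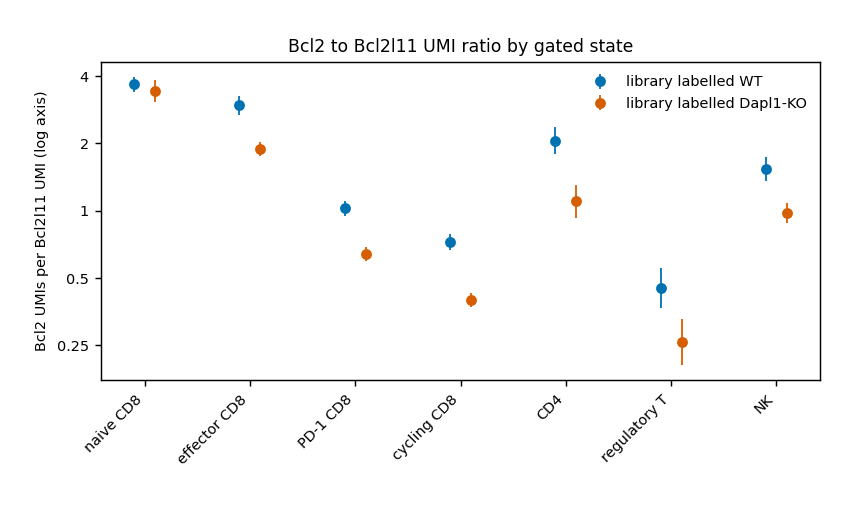
Bcl2 UMIs per Bcl2l11 UMI in each gated state (log axis), with exact 95% intervals from counts, for the library labelled WT (blue) and the library labelled Dapl1-KO (orange). Ratios run from 3.67 in naive CD8 cells labelled WT to 0.260 in regulatory T cells labelled Dapl1-KO, where Bcl2 was not separated from the small myeloid reference.

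Between the labels, Bcl2 was lower and Bax higher under the Dapl1-KO label in all 7 states, with intervals that excluded 0. Of 69 pairs of a member and a state at 10 CPM or more, 9 were called higher and 13 lower in the library labelled Dapl1-KO, and 6 of the 13 were Bcl2. By state, 4.65% to 13.7% of all genes were called higher and 6.56% to 15.2% lower. Bax, with log2 ratios of 0.21 to 0.53, passed 1.3-fold in naive and effector CD8 cells only. The log2 ratio of Bcl2, Dapl1-KO over WT, was -1.02 (interval -1.23 to -0.82) in CD4 cells, -0.76 (-1.16 to -0.36) in regulatory T cells and -0.55 (-0.68 to -0.43) in cycling CD8 cells. It was -0.50 (-0.61 to -0.38) in PD-1 CD8 cells, -0.47 in effector CD8 cells, -0.39 in NK cells and -0.19 (-0.29 to -0.10) in naive CD8 cells, where the difference was below 1.3-fold. Within subdivided states, the difference was -1.24 in CD4 cells with naive genes (where the naive check genes summed to 2614 and 1582 CPM and myeloid genes to 61.0 and 319 CPM, whose part was not tested), -1.001 in non-cycling regulatory T cells, -0.37 in the progenitor-gated PD-1 CD8 cells and -0.24 in cycling regulatory T cells, where the interval (-0.99 to 0.51) included 0. In regulatory T cells the shares of cells with Bcl2 were not separated from the myeloid reference given above. The call in CD4 and in regulatory T cells was lost when lineage genes needed 2 UMIs (-0.34 and -0.49).

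Within the library labelled WT, the sex of the cells moved with this result in PD-1, cycling and naive CD8 cells. It also did so in NK cells, where the log2 ratio of Y-linked over Xist cells was -0.88 (-1.73 to -0.15), from 10 Y-linked cells. This ratio was -0.09 (-0.34 to 0.15) in effector CD8 cells and 0.59 (-0.51 to 1.53) in regulatory T cells. In PD-1 CD8 cells labelled WT, Bcl2 was at 88.5 CPM (interval 83.1 to 94.1) in 934 cells with Xist and no Y-linked transcript and at 59.1 CPM (50.6 to 68.5) in 212 cells with Y-linked transcripts and no Xist. The 1272 Y-linked cells of the library labelled Dapl1-KO had 57.6 CPM (54.0 to 61.4). Restricted to such cells, the log2 ratio between the labels was -0.04 (-0.27 to 0.21) in PD-1 CD8 cells, -0.26 (-0.61 to 0.11) in cycling CD8 cells and -0.01 (-0.17 to 0.15) in naive CD8 cells, with no call. It was -0.39 in effector CD8 cells, -1.51 in CD4 cells and -1.14 in regulatory T cells, all still called, from 50, 51 and 22 cells labelled WT. In CD4 cells labelled WT, however, the cells with Y-linked transcripts had more Bcl2 than those with Xist (235 against 140 CPM), and 32 of the 51 carried naive genes against 108 of 373. Of the Y-linked CD4 cells labelled Dapl1-KO, 100 of 292 did. In NK cells it reversed to 0.38 (-0.36 to 1.23), with 10 cells labelled WT. Sex largely coincided with the label in all 7 states, and genotype label and sex cannot be told apart for Bcl2. In effector CD8, CD4, regulatory T and NK cells the restricted ratios rest on only 50, 51, 22 and 10 cells labelled WT. Whether cells with Y-linked transcripts under the WT label carry barcodes from the other library was not tested.

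**Figure D5:**
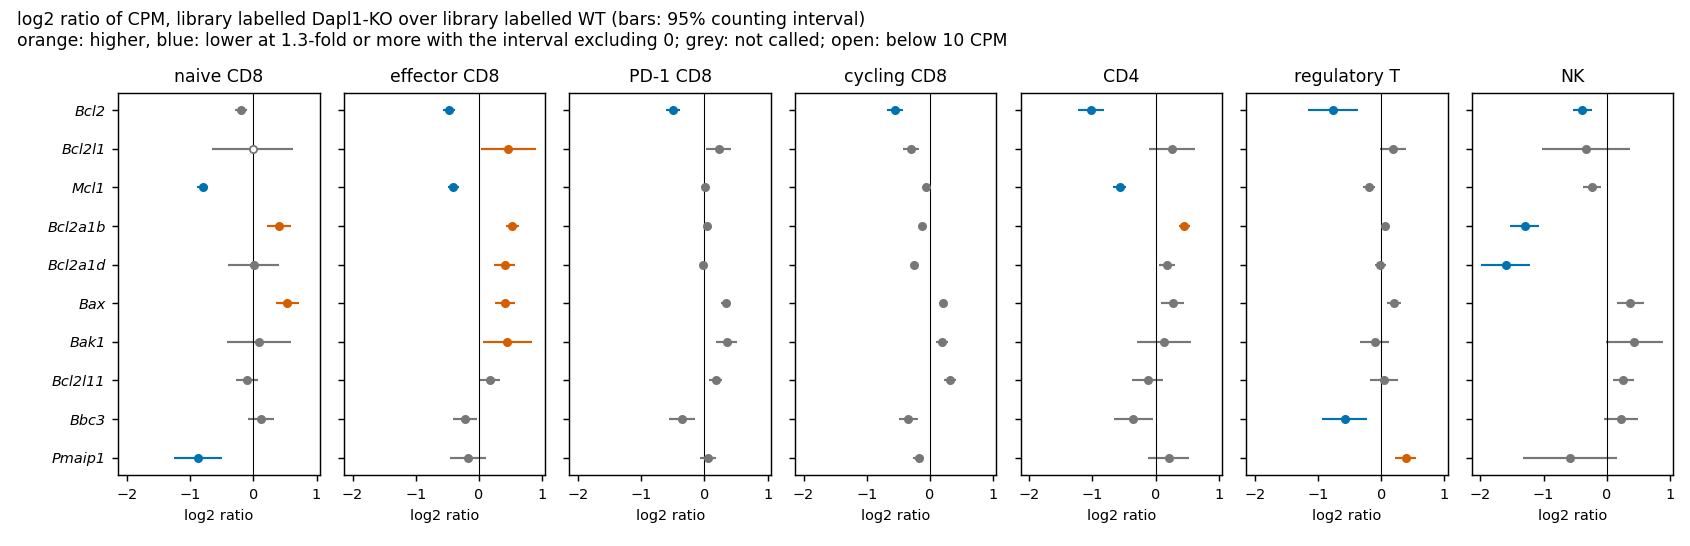
log2 ratio of CPM, library labelled Dapl1-KO over library labelled WT, for each member in each state, with 95% counting intervals. Orange points were called higher and blue points lower, grey points were not called, and the open point is Bcl2l1 in naive CD8 cells, below 10 CPM in both libraries. Bcl2 is the only member left of 0 in all 7 states.

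The remaining differences between the labels varied by state. In naive CD8 cells 2 of 9 members tested were higher and 2 lower, against backgrounds of 13.7% and 15.2% of genes. Mcl1 was lower (log2 ratio -0.80, interval -0.89 to -0.71), and its level in WT cells with Y-linked transcripts was higher still (750 CPM), so that restriction gave -1.06. Pmaip1 was also lower (-0.87), from 36.9 to 20.2 CPM, though its ratio was -0.28 and not called with gates on thinned counts. Bax (0.53) and Bcl2a1b (0.41) were higher. In effector CD8 cells 5 members were higher and 2 lower (backgrounds 13.2% and 8.20%). Bcl2l1, Bcl2a1b, Bcl2a1d, Bax and Bak1 were higher by log2 ratios of 0.41 to 0.53, and Bcl2 and Mcl1 (-0.40) were lower. Bcl2l1, Bcl2a1d, Bax and Bak1 lost their call both under median-of-ratios scaling and under a total without ribosomal and mitochondrial genes, and Bak1 kept it in 3 of 11 alternatives, Bcl2a1d in 5 and Bax in 6. With the other CD8 cells pooled into that gate, the ratio of Bcl2a1d was -0.03 and Bcl2, Bcl2a1b, Bcl2a1d and Bak1 were no longer called.

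PD-1 CD8 and cycling CD8 cells had few differences between the labels. In each, no member was called higher and Bcl2 alone was called lower when all cells were used (backgrounds 10.1% and 6.59% in PD-1 CD8 cells, 5.99% and 6.56% in cycling CD8 cells). In cells with Y-linked transcripts and no Xist this turned around: Bcl2 was not called, and Bax was higher in PD-1 CD8 (0.52) and cycling CD8 cells (0.41), as was Bak1 in the latter (0.61). Mcl1 in PD-1 CD8 cells had a log2 ratio of 0.00 (interval -0.06 to 0.06), and the A1 genes summed differed by 0.02 (-0.01 to 0.05). Bax (0.33) and Bak1 (0.35) were higher and Bbc3 (-0.36) lower there by less than 1.3-fold, with intervals that excluded 0.

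In CD4 cells 1 member was higher and 2 lower (backgrounds 9.70% and 7.86%). Bcl2a1b was higher (0.46), at 796 against 580 CPM, and Mcl1 was lower (-0.57) beside Bcl2. Both calls were lost with gates on thinned counts and when lineage genes needed 2 UMIs, with Mcl1 as near to 0 as -0.26. The Mcl1 difference lay mainly in CD4 cells with naive genes, with 467 CPM against 929 CPM, compared with 357 and 389 CPM in other CD4 cells. The naive check genes in that gate differed between the labels, as given above. In CD4 cells labelled WT, Mcl1 was at 1015 CPM in 51 cells with Y-linked transcripts and no Xist and at 443 CPM in 373 cells with Xist. In regulatory T cells 1 member was higher and 2 lower (backgrounds 4.65% and 10.0%). Pmaip1 was higher (0.39), with a larger ratio in cycling regulatory T cells (0.81), and Bbc3 was lower beside Bcl2 (-0.58).

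NK cells differed most in the A1 genes. No member was called higher and 3 were lower (backgrounds 6.41% and 7.10%). Bcl2a1b was at 169 CPM in NK cells labelled WT and 68.5 CPM in those labelled Dapl1-KO (log2 ratio -1.30, interval -1.54 to -1.07), and Bcl2a1d at 71.8 and 23.7 CPM (-1.60). Under the WT label, 95 of 323 NK cells held a Bcl2a1b UMI and 10 cells held 50.5% of its 428 counts, against 94 of 463 cells and 37.1% of 237 counts for the Dapl1-KO label. For Bcl2a1d, 10 cells held 53.3% of 182 counts under the WT label and 52.4% of 82 counts under the Dapl1-KO label. The counting intervals do not cover this spread between cells. NK cells with Il7r or Cd200r1, genes of innate lymphoid cells, made up 29.4% and 11.4% of the NK gate. They had 242 and 136 CPM of Bcl2a1b, while the remaining NK cells had 137 and 59.4 CPM (-1.20, interval -1.49 to -0.92). For Bcl2a1d the ratio was -1.81 with those genes and -1.10 without them. This split was chosen after the values had been seen. Il7r itself was at 97.4 and 29.8 CPM in the NK gate, and Klra8, a receptor of conventional NK cells, at 211 and 215 CPM. With 10 NK cells labelled WT, the restriction to Y-linked transcripts left Bcl2a1b called and Bcl2a1d not called (-0.51).

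Genes up- and downstream of the family were read from 6 lists. Of 12 apoptosome and caspase genes, 10 could be tested in cycling against naive CD8 cells, and 7 were higher and none lower, beside the background of 49.6% of genes. Cycs (cytochrome c) was at 76.5 and 113 CPM in naive and at 302 and 382 CPM in cycling CD8 cells. Apaf1, the scaffold of the apoptosome, and Htra2, a mitochondrial protease, had log2 ratios of 2.40 and 1.48 and of 2.50 and 1.77. Of 5 inhibitor of apoptosis genes, Birc5 (survivin, also a mitosis gene) was higher by log2 ratios of 5.50 and 5.81 and Birc3 lower by -0.98 and -0.72. Birc2 (0.06 and 0.55) and Xiap (0.16 and 0.40) were not called in both libraries.

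Of the cytokine survival genes, 5 of 13 were higher and 5 lower in cycling than in naive CD8 cells, beside 49.6% and 15.6% of all genes, which is also the background of the counts that follow. Il7r, the IL-7 receptor chain, was at 505 and 329 CPM in naive CD8 cells and 29.4 and 26.1 CPM in cycling CD8 cells, and the kinase gene Pim2 at 55.6 and 48.3 CPM and at 5.26 and 5.04 CPM. Il2ra, a chain of the IL-2 receptor, was at 2.29 and 3.45 CPM and at 48.4 and 47.1 CPM, and Akt1, a survival kinase, had log2 ratios of 2.18 and 1.98. Of the p53 and FOXO genes 5 of 7 tested were higher, among them Cdkn1a (1.68 and 2.23) and Ccng1 (1.77 and 1.80), which are p53 targets, as is Bbc3, which was lower. Of 6 death receptor genes tested, Fasl, Tnfsf10 and Tradd were higher and Fas and Ripk1 lower. Among 16 further BCL2 relatives only 4 reached the level for a test, of which Bnip3 (2.38 and 2.31), Bcl2l12 (1.59 and 1.71) and Bad (0.66 and 0.50) were higher.

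Between the labels in PD-1 CD8 cells, called members of these lists were all higher in the library labelled Dapl1-KO, beside backgrounds of 10.1% of genes higher and 6.59% lower. They were 3 of 12 cytokine genes (Jak3 0.84, Il2rb 0.59 and Il2ra 0.48), 2 of 10 apoptosome and caspase genes (among them Cycs 0.52), 1 of 7 death receptor genes (Tnfsf10 0.63), 1 of 5 inhibitors (Birc5 0.42) and 1 of 4 relatives (Bcl2l12 0.45). No p53 or FOXO gene was called. Birc5 reversed to -0.06 with all barcodes kept and to -0.31 in cells with Y-linked transcripts. The median log2 ratio of the cytokine list was 0.25 against 0.03 over all genes tested.

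Genes most like each member over the 7 states were ranked among 7037 candidates by the lower of the Pearson correlations of log2 levels in the 2 libraries. With 7 points and this many candidates, high values are common. For Bcl2 they were Trim12a (0.98 and 0.97), Zfp652 and Eif4a2. For Bcl2l1 they were Ctla4 (0.98 and 0.96), Rab11fip1 and Aebp2, for Mcl1 Ccpg1 (0.98 and 0.97), Prdm2 and Avl9, and for Bax Ube2m (0.99 and 0.99), Rbm3 and Asns. Bcl2a1b and Bcl2a1d were each other's closest gene (0.99 and 0.98), followed by Gdi2 and C2cd4b for the first and Alcam and Gdi2 for the second. Bak1 was closest to Ndufb7, Anxa6 and Blvra, Bcl2l11 to Mafk, Prdx6 and Gramd1b, Bbc3 to Mylip, Znrf3 and Hs3st3b1, and Pmaip1 to Aopep, Ikzf4 and Sh3kbp1.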

How the data were processed

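Cells of 2 droplet libraries (3′ chemistry, version 3) were analysed, 1 labelled WT and 1 labelled Dapl1-KO. The deposited matrices hold UMI counts per gene and cell barcode, made by the authors with Cell Ranger 5.0.0 on mm10 (GRCm38), per the submitters' processing notes. They hold 154408101 and 206322042 counts. No other step of the authors is given in the sources used here.

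Of barcodes found in both libraries, the copy with fewer UMIs was removed when the other had at least 2 times as many (both were removed for 21 barcodes with no clear larger copy). Barcodes under 500 detected genes or over 10% mitochondrial UMIs were dropped. Scrublet in scanpy 1.11.5 found 0 doublets with its automatic threshold, so the highest-scoring cells were removed at 0.8% per 1000 cells (873 and 1058), leaving 8992 and 10098 cells with median depths of 7356 and 8463.5 UMIs. States were gated on raw UMIs, which placed 58.0% and 65.8% of cells. Counts were summed per state and library. Levels have exact Poisson intervals, shares Clopper-Pearson intervals and ratios exact conditional binomial intervals, all 95% and for counting error only (scipy 1.17.1, numpy 2.4.6, pandas 2.3.3). A count of 0 was set to a floor of 3 counts for ratios.

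The members, gene lists, gates and rules were chosen with earlier results of these data known. The named genes are all members, the 3 genes closest to each over the 7 states on log2(CPM + 1), and up to 4 genes per list with the largest ratio. The calling rule was tested on simulated data with 2-fold changes: it recovered 198 of 198 changed genes in PD-1 CD8 cells and 187 of 196 in NK cells, and called 0.211% and 2.92% of unchanged genes. Both libraries were simulated as Poisson counts from a shared pooled rate, with no spread between cells, animals or libraries. The simulation therefore covers counting error only and gives no rate of false calls for the real libraries. The 11 alternatives covered barcode copies, doublets, cell filter, gates, sex, scaling and minimum level. Pooling effector with other CD8 cells was added after seeing the data. Some genes of the lists are not reported here.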

Additional observations from a re-analysis of the deposited data

Results flagged for a closer look

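The difference between the labels had opposite directions in different cell states for 3 members, each beyond 1.3-fold and its counting interval. The log2 ratio of Bcl2a1b, Dapl1-KO over WT, was 0.41 in naive CD8, 0.53 in effector CD8 and 0.46 in CD4 cells, and -1.30 in NK cells. For Bcl2a1d it was 0.41 in effector CD8 and -1.60 in NK cells. These copies share most of their sequence, and the effector value of Bcl2a1d turned negative under 2 alternatives. Pmaip1 was lower in naive CD8 cells (-0.87) and higher in regulatory T cells (0.39). The first fell short of a call with gates on thinned counts (-0.28), and the second was not called under 5 of 11 alternatives (down to 0.14). With 1 library per label, the differences between states were not tested.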

How the results depend on the processing

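No paired analysis was possible because each label has 1 library. Of the 44 calls against naive CD8 cells, 33 held under all 11 alternatives, and of the 22 calls between the labels 3 did (Mcl1 and Bax in naive CD8 cells, Bcl2a1b in NK cells). Main counts between the labels were 9 pairs higher and 13 lower. The higher count moved to 4 with all barcodes kept, 5 when lineage genes needed 2 UMIs, 3 with a total without ribosomal and mitochondrial genes (16 lower) and 5 with median-of-ratios scaling (15 lower). In cells with Y-linked transcripts and no Xist, 13 were higher and 10 lower, which turns the balance, with 10 calls not made in all cells. The causes were not tested. Ratios between the labels that changed sign were Birc5 in PD-1 CD8 cells (-0.064 with all barcodes, -0.31 in cells with Y-linked transcripts and no Xist), Bcl2 in NK cells (0.38 in such cells) and Bcl2a1d in effector CD8 cells (-0.091 in such cells, -0.029 with other CD8 cells pooled). In such cells labelled WT, ratios over naive CD8 cells changed sign for Bak1 in CD4 cells (-0.022) and Pmaip1 in PD-1 CD8 (-0.16), cycling CD8 (-0.21) and regulatory T cells (-0.52). Few cells limit these values: 22 regulatory T and 10 NK cells labelled WT had Y-linked transcripts and no Xist.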
